A study of Mus musculus with 19 samples.

Results

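The haemoglobin and erythroid genes described here are 6 genes, Hba-a1, Hbb-b1, Alas2, Slc4a1, Bpgm and Fech, taken through all 11 probes that carry one of these names among the 41174 probes and 27425 gene names of a whole mouse genome array. The genes were chosen on their measured levels in the soleus arrays, db against Con, so their differences between soleus groups are given as a description without a test. RNA was measured on 1-colour Agilent arrays, 1 array per sample, in 19 samples of 4 groups. Soleus Con was the soleus muscle of 3 heterozygous control mice (db -/+) and soleus db that of 4 of their db +/+ littermates, obese animals that lack a working leptin receptor. All 7 mice were male C57BL6J animals of 12 weeks, fed chow and fasted for 5 h before death. C2C12 is a mouse myoblast line. The 6 C2C12 WT samples stably carried empty plasmids, the 6 C2C12 HDAC4&5 samples stably carried plasmids for wild-type human HDAC4 and human HDAC5, class IIa histone deacetylases, and both were selected with hygromycin and geneticin at 500 µg/ml each and harvested 48 h after seeding. Neither the labels nor the methods say whether cultures of a group came from separate transfections, so the spread between C2C12 arrays may be technical. Fewer biological replicates per group are stated in the methods than the 6 arrays of each C2C12 group and the 4 of soleus db. Some C2C12 arrays may therefore share a culture, while the labels number the db arrays as separate mice. Throughout, n counts arrays.

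Haemoglobin carries oxygen in red blood cells and is built from alpha and beta globin chains, each holding a haem group. Alas2 starts haem synthesis in erythroid cells, and Fech ends it in all cells by placing iron into the ring. Maturing red cells load globin and haem transcripts, then lose their nucleus, and the youngest red cells in the circulation still carry some of these transcripts. Slc4a1 is the band 3 anion exchanger of the red cell membrane, and Bpgm makes the metabolite that lowers the affinity of haemoglobin for oxygen.

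The level of a probe is given throughout as log2 of its processed intensity minus log2 of the 75th percentile of its own array. A spot is called well above background, or saturated, as the scanner software marked it, and a saturated spot is at the top of the scanner's range and has no higher reading. The 75th percentile was 153 to 232 intensity units on the 4 soleus arrays of slide 1 (Con 1, Con 2, db 1 and db 2) and 555 to 686 on the 3 of slide 2 (Con 3, db 3 and db 4), with 75 to 102 and 728 to 1117 saturated spots per array. The number of arrays limits the precision of every value. Myh7 and Mb, the slow myosin heavy chain and myoglobin of slow muscle fibres, were well above background on all 7 soleus arrays. Myod1, a defining factor of myoblasts, was well above background on 6 of 6 C2C12 WT arrays and on 0 of 6 C2C12 HDAC4&5 arrays, with mean levels of 2.70 and -6.04.

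Hbb-b1, a beta globin of adult red cells, was measured by 4 probes, of which 3 are printed because they differ in how far saturation touched them. Capitals mark the 29 bases that the second and the third share.
Hbb-b1 A_51_P374468: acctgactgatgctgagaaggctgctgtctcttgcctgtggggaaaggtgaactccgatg
Hbb-b1 A_51_P374476: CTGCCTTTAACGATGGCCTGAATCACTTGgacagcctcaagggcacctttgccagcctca
Hbb-b1 A_52_P260346: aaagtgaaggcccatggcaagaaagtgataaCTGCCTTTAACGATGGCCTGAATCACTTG
The array design places them on the minus strand of chromosome 7, at chr7:110962317-110962376, chr7:110962000-110962059 and chr7:110962031-110962090, in a genome build that the files do not name. RefSeq's table for GRCm38.p6 lists the transcript they were designed on under Hbb-bt, and beta globin genes are close copies, so the signal of one copy cannot be separated from that of another.

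The probe A_51_P374468 was the Hbb-b1 probe with no saturated spot on any soleus array. Its level was 5.13, 4.79 and 4.99 in Con 1 to Con 3 and 3.10, 2.89, 3.47 and 3.45 in db 1 to db 4. The 3 control muscles lay within 0.35 of each other and above all 4 db muscles, on both slides. The mean was 4.97 ± 0.17 (SD, n = 3) in Con and 3.23 ± 0.28 (SD, n = 4) in db, a difference of -1.74 on the log2 scale (SE 0.29), or 3.34-fold lower in db. Within slides the difference was -1.96 and -1.53, and it ran from -1.83 to -1.63 when each array was left out in turn.

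The other 3 Hbb-b1 probes were cut off by saturation, most of all on slide 2. The probe A_51_P374476 was saturated on all 7 soleus arrays, with levels of 8.44, 8.71 and 6.92 in Con and 8.16, 8.07, 6.81 and 6.70 in db, so it gives no fold. The probe A_52_P260346 stood at 8.31, 7.98 and 6.73 in Con and at 7.08, 6.71, 6.41 and 6.54 in db, with saturated spots on Con 1, Con 3, db 3 and db 4. The probe A_52_P213909 stood at 8.36, 8.10 and 6.96 in Con and at 6.75, 6.84 and 6.72 in db 2 to db 4, saturated on the same 4 arrays, and its db 1 spot was marked as an outlier and left out. On slide 1 both were lower in db, by -1.25 for A_52_P260346 and -1.47 for A_52_P213909, with Con 1 a lower limit in each. On slide 2, where every spot of these probes was at the scanner's limit, the differences were -0.26 and -0.18, so saturation leaves no size for them.

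**Figure D1:**
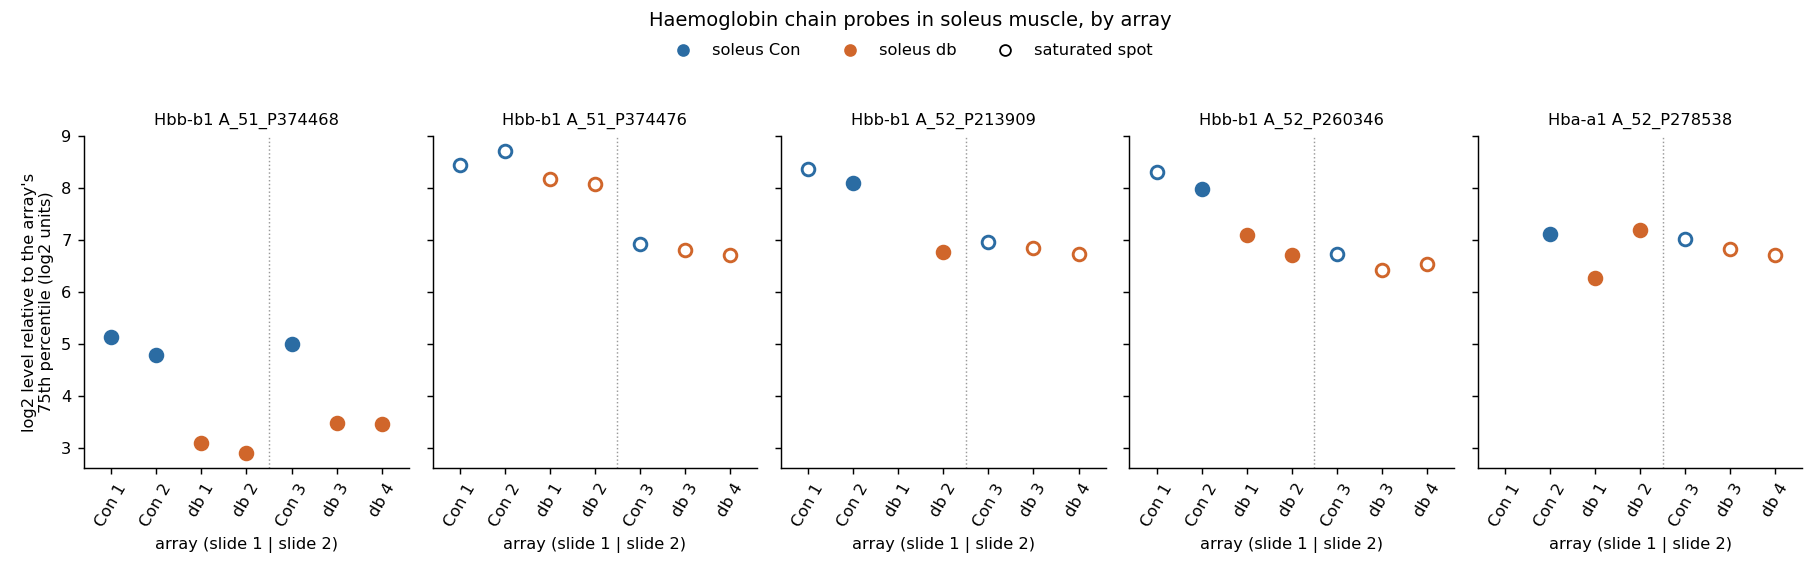
Levels of the 4 Hbb-b1 probes and the Hba-a1 probe on each of the 7 soleus arrays (y axis, log2 units relative to the 75th percentile of the array; x axis, arrays by slide; open points, saturated spots; missing points, spots marked as outliers). The unsaturated probe A_51_P374468 separates Con (4.79 to 5.13) from db (2.89 to 3.47) on both slides, while the other probes are compressed on slide 2, where all their spots are saturated.

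Hba-a1, an alpha globin of adult red cells, had 1 probe, and its neighbour gene Hba-a2 had another. They are printed because the windows overlap by 30 bases, of which 27 are identical, and the 3 bases that differ are in capitals, so the probes cannot be taken to separate the RNA of the 2 genes.
Hba-a1 A_52_P278538: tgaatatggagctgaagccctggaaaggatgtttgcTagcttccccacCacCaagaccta
Hba-a2 A_52_P208681: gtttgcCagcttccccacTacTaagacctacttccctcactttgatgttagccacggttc
The Hba-a1 probe is placed on the plus strand at chr11:32183775-32183956, a span of 182 bases for a probe of 60, so it crosses a gap in the alignment. Its level was 7.11 and 7.02 in Con 2 and Con 3, with the Con 1 spot left out as an outlier, and 6.27, 7.19, 6.82 and 6.71 in db. The groups overlapped, the 3 arrays of slide 2 were saturated, and the difference was -0.31 (SE 0.37). With outlier spots kept, a setting added once the values were known, it was -0.73 (SE 0.42). Hba-a2 stood at 8.60, 7.41 and 7.02 in Con, saturated on Con 1 and Con 3, and at 6.69, 7.09, 6.64 and 6.25 in db, where no spot was saturated. Its db levels lay below Con 1 and Con 2, and db 2 read above the saturated Con 3, whose true level may be higher. The measured difference was -1.01 (SE 0.43), in which both saturated Con levels are lower limits, with a limma adjusted p of 0.775 over all probes.

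Alas2 and Slc4a1, the erythroid haem enzyme and the band 3 exchanger, had 1 probe each, placed at chrX:147004993-147005052 on the plus strand and chr11:102210256-102210315 on the minus strand. Alas2 stood at 4.02, 2.57 and 1.30 in Con and at 2.10, 1.81, -0.45 and 0.03 in db, and was well above background on all 7 arrays. The pooled groups overlapped through Con 3, but on each slide every Con array lay above every db array. The difference was -1.76 (SE 0.82), with -1.34 on slide 1 and -1.51 on slide 2. Con 1 and Con 3 decide much of its size, since it was -1.06 without Con 1 and -2.43 without Con 3. Slc4a1 stood at 0.95, -1.57 and -3.97 in Con and at -2.58, -3.63, -5.48 and -4.72 in db, and was well above background only on Con 1, Con 2 and db 1. It therefore stayed out of the fit, and no difference is given. The 3 arrays on which it was measured fell in the same order as for Alas2, with Con 1 highest and db 1 lowest.

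Ahsp, the chaperone that holds free alpha globin, is not one of the 6 genes but also lay higher in every Con array than in every db array. Its level was 0.72, -2.69 and -2.88 in Con, all well above background, and -5.91, -5.69, -6.69 and -4.50 in db, where no spot was. It was at least 5.88-fold higher in Con than in db, taken against the dimmest signal that counted as above background on each db array. Con 1 carried much of this limit, which was 2.62-fold without it and 9.10-fold without Con 3. Ahsp entered the fit through Con alone, so its limma adjusted p over all probes, 0.413, set a signal against background. Kel and Trim10, which mark late erythroid cells, were well above background on Con 1 alone of the 7 arrays.

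**Figure D2:**
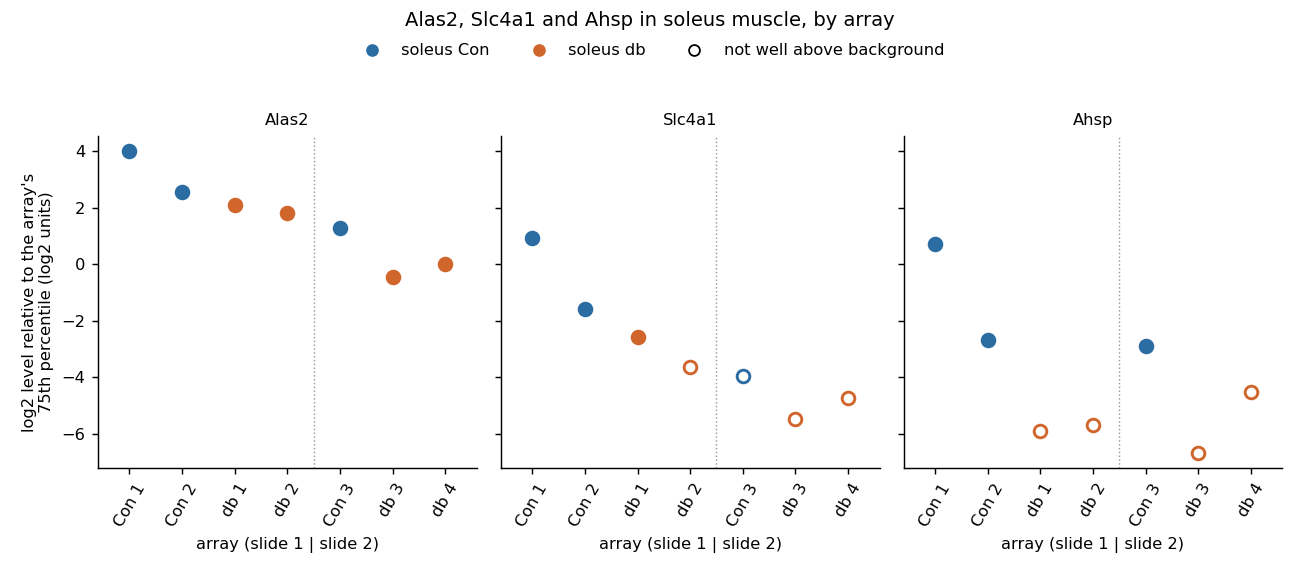
Levels of Alas2, Slc4a1 and Ahsp on each of the 7 soleus arrays (y axis, log2 units relative to the 75th percentile of the array; x axis, arrays by slide; open points, spots not well above background). Con 1 is the highest array for all 3 genes, and on each slide every Con array lies above every db array for Alas2 and Ahsp, while all 3 Slc4a1 spots of slide 2 are at background and have no order.

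Bpgm and Fech, which many cell types use, had groups that overlapped in all 4 of their probes. The Bpgm probes are placed at chr6:34454792-34454851 and chr6:34437912-34454291, both on the plus strand, and the second spans 16380 bases and so crosses a gap in the alignment. The 2 Bpgm probes differed by 0.03 (SE 0.39) and 0.18 (SE 0.50) between db and Con, and the sign of both turned when single arrays were left out. Bpgm A_52_P401640 stood between 3.33 and 4.57 in Con and between 3.53 and 4.34 in db. Fech A_52_P293076 stood at 1.93, 1.63 and 2.42 in Con and at 2.33, 1.99, 3.12 and 2.46 in db, a difference of 0.48 (SE 0.37) with overlapping groups. Fech A_51_P266763 stood at 3.86 and 4.22 in Con 1 and Con 2 and at -0.84, 3.50 and 4.51 in db 1, db 2 and db 4, with the spots of Con 3 and db 3 left out as outliers. Its difference of -1.65 rested on db 1, and without that array it was -0.03. The probes of Fech thus differed in sign.

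Counted together, 10 of the 11 probes, of 5 genes, passed the filter on dim probes in soleus, and 7 of them had a lower mean in db, against 48.4% of all 18543 probes tested. Of the 10, 2 had no overlap between groups and lay lower in db, against 4.57% of all probes, and both were Hbb-b1 probes, while 0 lay higher without overlap, against 5.84%. For one of these, A_52_P213909, the nearest arrays of the groups, Con 3 at 6.96 and db 3 at 6.84, were both saturated. These values chose the genes, so nothing is read from the counts. A difference below that of the unsaturated Hbb-b1 probe was found for 210 probes, 1.13% of all. The median difference was -0.79 over the 10 probes and 0.02 over all probes.

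Of the 93 further genes listed for red cells and their precursors, 89 were on the array and 58 were tested in soleus. Hba-a2 is among the 58, though its probe cannot be taken to separate it from Hba-a1, which was chosen on these arrays. None of the 58 passed a limma adjusted p of 0.05, and over all probes 1 of 18543 did (0.00539%). At an unadjusted p of 0.05, 5 of the 58 passed, against 6.43% of all probes. With slide as a block 15 passed, against 17.9% of all probes, and with replicate number as a block 11 of the list passed, against 15.5%. Without a block, the 5 are named here. These were Hba-a2, Ahsp and Tspo2, an erythroid translocator protein, all lower in db, and Car2 and Erfe, both higher in db. That makes 3 lower, against 2.81% of all probes, and 2 higher, against 3.62%. Ahsp and Erfe entered the fit only through the group where they were well above background. Their p values therefore set a signal against background and are not read as tests. Tspo2 and Erfe were chosen after their values were seen. Tspo2 stood at 0.58, -0.75 and -0.87 in Con and between -1.94 and -1.28 in db, with a difference of -1.25 (SE 0.42).

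Car2 and Erfe went the other way. Car2, a carbonic anhydrase of red cells and of other tissues, stood at 2.51, 0.98 and 1.43 in Con and between 2.54 and 2.89 in db, a difference of 1.04 (SE 0.40, adjusted p = 0.741 in limma). Erfe, the hormone erythroferrone, which erythroblasts release and muscle also expresses, was not well above background on any Con array and was so on all 4 db arrays, at -1.73, -1.69, -2.27 and -2.33. It was at least 2.87-fold higher in db. Its limma adjusted p, 0.330, set a signal against background, since Erfe entered the fit through db alone.

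The other groups of the list held few such genes. Of 16 haem synthesis genes tested, 8 were higher and 8 lower in db, and 0 passed at an unadjusted p of 0.05. Slc25a37, the iron importer of mitochondria, differed by -1.16 (SE 0.55). Alas1, the general counterpart of Alas2, differed by 0.05 (SE 0.37) and Alad by 0.45. Of 11 red cell membrane and skeleton genes tested, 9 had a lower mean in db, against 48.4% of all probes, with a median of -0.18, and 1 passed at an unadjusted p of 0.05. Of 7 erythroid transcription factors tested, 5 had a higher mean in db and 2 a lower one, against 48.4% lower of all probes. Among these factors, Tal1 was well above background on all 7 soleus arrays and Klf1 on Con 1, db 1 and db 2. Gata1 and Nfe2 were so on 0 of 7, as was Epb42, a part of the red cell skeleton.

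**Figure D3:**
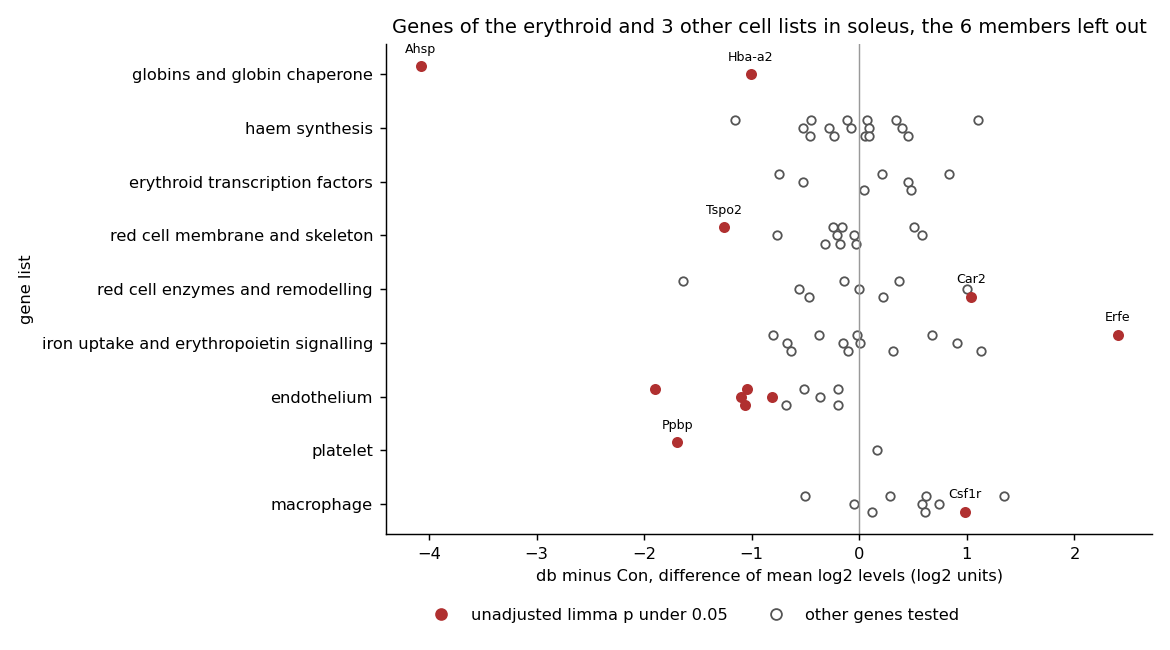
Difference between db and Con soleus (x axis, log2 units) for each tested gene of the 6 erythroid lists and of 3 lists for other cells (rows), with the 6 described genes left out and filled red points for genes at an unadjusted limma p under 0.05. The points of Ahsp and Erfe have no exact place, since no spot of Ahsp in db and of Erfe in Con was well above background, and all 10 endothelial genes lie below 0.

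Markers of blood vessels were measured in the same muscles. All 10 endothelial genes listed had a lower mean in db, against 48.4% of all probes, 5 of them at an unadjusted limma p of 0.05, against 2.81%, and 0 after adjustment, with a median difference of -0.74. Pecam1, an adhesion molecule of endothelium, differed by -0.20, and Flt1, a VEGF receptor chosen after its value was seen, by -1.04 (SE 0.32). The summed linear level of the 9 genes measured on every array was 65.0, 53.0 and 54.9 in Con 1 to Con 3 and 47.2, 26.1, 33.8 and 26.8 in db 1 to db 4, so the groups did not overlap. The part of vessel content in the globin differences was not tested. In whole muscle, fewer cells of a type and less RNA per cell cannot be told apart.

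Other blood cells were followed by their own lists. The summed level of 9 platelet genes was 0.520 to 2.47 in Con and 0.424 to 0.812 in db, with Itga2b not well above background on any array and Pf4 differing by 0.16. Of the 2 platelet genes tested, Ppbp, chosen after its value was seen, differed by -1.69 (SE 0.61) and passed an unadjusted limma p of 0.05. That of 9 neutrophil genes was 0.858 to 1.61 and 0.633 to 2.17, with S100a9 differing by -0.03 and S100a8 well above background on 1 of 7 arrays. That of 8 lymphocyte genes was 0.651 to 0.768 and 0.339 to 0.757, and that of 9 macrophage genes 41.0 to 131 and 49.0 to 130.1. Of 10 macrophage genes tested, 8 had a higher mean in db, with a median difference of 0.60 and 1 past an unadjusted limma p of 0.05, and the sum includes 1 gene with saturated spots. Of 3 lymphocyte genes tested, 1 was lower in db at an unadjusted p. All 4 ranges overlapped between Con and db, and the part of these cells in the globin differences was not tested.

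**Figure D4:**
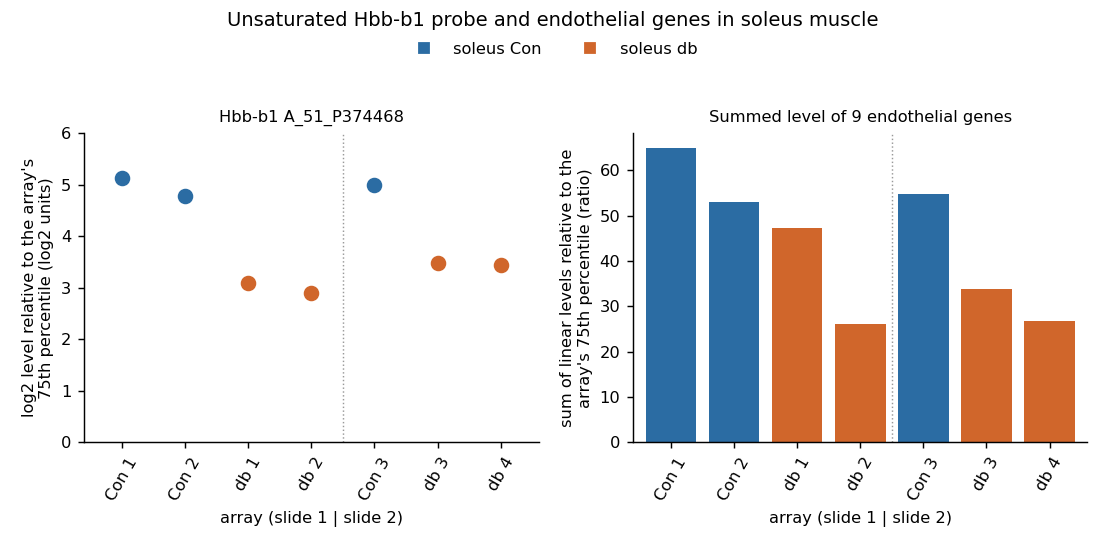
Level of the unsaturated Hbb-b1 probe (left, log2 units relative to the 75th percentile of the array) and summed linear level of 9 endothelial genes (right, in multiples of the 75th percentile) on the 7 soleus arrays, by slide. Both are higher in every Con array, at 4.79 to 5.13 and 53.0 to 65.0, than in every db array, at 2.89 to 3.47 and 26.1 to 47.2.

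Genes whose pattern over the 7 soleus arrays was most like the globins were found by correlation, as a description over arrays that share slides. The first profile was the mean of the brightest Hba-a1 and Hbb-b1 probes, which follow saturated spots. On Con 1 it rests on Hbb-b1 A_51_P374476 alone, since the Hba-a1 spot was left out as an outlier. These probes correlated at only 0.11 over 6 arrays, so their mean is not a pattern common to both. Against it, the 5 closest of 13038 non-member probes well above background on all arrays were those of Plxna2, Cd300lg, Nckap5, Rcc2 and Zfp82, at Pearson r of 0.989 to 0.993. With the mean of each slide removed they were Rccd1, Smek1, Pcdh17, Kcnj8 and Armcx2, at 0.985 to 0.997. Against the unsaturated Hbb-b1 probe alone, a profile added after the data were seen, they were Apoc1, Fbxl7, Nup160, Rnf213 and Rbl1, at 0.962 to 0.976. After slide means were removed they were Aasdh, Ndfip2, Whsc1l1, Rbl1 and Arap3, at 0.990 to 0.996. Of the erythroid transcripts, Alas2 correlated with A_51_P374468 at 0.51 over the 7 arrays. It correlated at 0.85 to 0.90 with the other Hbb-b1 probes, which hold saturated spots, and at 0.13 with the Hba-a1 probe.

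Promoters are shown for the 3 transcripts at the centre of these values, from RefSeq's GRCm38.p6 table, as the 250 bases before the start. Capitals mark 3 motifs on either strand, namely GATAA, which GATA factors bind, then CACCC, which the erythroid KLF factor binds, and the promoter box CCAAT.
Hba-a1: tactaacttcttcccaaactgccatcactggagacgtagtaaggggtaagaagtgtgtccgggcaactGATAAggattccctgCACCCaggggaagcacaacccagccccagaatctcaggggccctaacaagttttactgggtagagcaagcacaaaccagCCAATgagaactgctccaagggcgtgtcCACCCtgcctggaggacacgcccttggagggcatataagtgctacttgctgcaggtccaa
Hbb-bt: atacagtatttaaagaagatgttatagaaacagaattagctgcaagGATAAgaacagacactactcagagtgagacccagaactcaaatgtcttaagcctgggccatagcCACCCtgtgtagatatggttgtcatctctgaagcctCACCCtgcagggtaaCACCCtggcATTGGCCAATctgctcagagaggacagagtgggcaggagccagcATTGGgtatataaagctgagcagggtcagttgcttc
Alas2: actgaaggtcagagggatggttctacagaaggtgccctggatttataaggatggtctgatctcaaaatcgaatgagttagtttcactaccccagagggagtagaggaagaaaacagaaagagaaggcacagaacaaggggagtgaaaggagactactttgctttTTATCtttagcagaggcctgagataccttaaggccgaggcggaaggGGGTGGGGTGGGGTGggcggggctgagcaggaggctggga
They lie at chr11:32283422-32283671 on the plus strand, chr7:103813924-103814173 on the minus strand and chrX:150547167-150547416 on the plus strand. Each held 1 GATAA, which 22.6% of 32851 promoters of the same length hold. CACCC was found 2 times in Hba-a1, 3 times in Hbb-bt and 3 times in Alas2 (end to end in Alas2), and 52.0% of all promoters hold it. CCAAT was found 1 time in Hba-a1, 3 times in Hbb-bt and 0 times in Alas2, against 33.8% of all. The Bpgm promoter held 0 copies of GATAA, 0 of CACCC and 3 of CCAAT. The promoters of Hba-a1 and Hba-a2 were identical over the 247 bases in which their windows overlap.

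The C2C12 arrays ask whether HDAC4 and 5 overexpression in myoblasts moved the same genes. In all, 6 probes of 4 genes passed the filter on dim probes, and 4 of them passed a limma adjusted p of 0.05, all lower in HDAC4&5. Of all 21483 probes tested, 68.3% passed and 31.8% passed as lower, so a called share of 4 in 6 is near that of the array. With slide as a block 6 of 6 passed, against 76.6% of all probes. The same 4 probes had no overlap between groups, as did 25.0% of all probes in that direction, and 0 lay higher without overlap, against 27.4%.

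Hba-a1 gave the largest difference among the 6 probes. Its level ran from -0.97 through a median of -0.80 to -0.56 in C2C12 WT and from -3.33 through -3.26 to -2.93 in HDAC4&5, well above background on all 12 arrays. The groups lay far apart, at -0.79 ± 0.17 (SD, n = 6) and -3.18 ± 0.16 (SD, n = 6). Hba-a1 was 5.25-fold lower in HDAC4&5 (difference -2.39, SE 0.09, adjusted p = 6.37e-11 in limma), and the 3 slides gave -2.43, -2.36 and -2.38. With normexp background correction the difference was -1.38, still past the threshold. The Hba-a2 probe moved alike, at -2.24 (SE 0.13, adjusted p = 5.38e-09 in limma). In soleus the Hba-a1 probe stood at least 231-fold above C2C12 WT in Con, a lower limit from Con 2 and the saturated Con 3, though tissue and slide cannot be told apart there.

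Alas2, Slc4a1 and Hbb-b1 were at or near background in C2C12 cells, as were some genes of the further list. Others of that list, such as Tspo2, Ank1 and Epb41, were well above background on all 12 arrays. Alas2, Hbb-b1 A_51_P374476 and Hbb-b1 A_52_P213909 were well above background on 0 of 12 arrays, and Ahsp and Gata1 likewise. Alas2 was at least 325-fold higher in soleus Con and at least 96.0-fold higher in soleus db than in C2C12 WT. The first limit was 200.3-fold without Con 1 and 515-fold without Con 3. Hbb-b1 A_51_P374468 ran from -5.16 to -4.44 in WT and from -4.91 to -3.98 in HDAC4&5, where 4 of 6 spots were well above background, and the difference was 0.23 (SE 0.16, adjusted p = 0.225 in limma). With slide as a block it passed, at 0.0418. Slc4a1 was well above background on 4 of 6 WT and 3 of 6 HDAC4&5 arrays and was not tested.

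Bpgm and Fech were well above background on all 12 C2C12 arrays. Bpgm A_52_P401640 fell from 1.61 ± 0.11 to 1.22 ± 0.07 and A_51_P108408 from 0.54 ± 0.08 to 0.20 ± 0.07 (SD, n = 6 each), differences of -0.39 (SE 0.06) and -0.34 (SE 0.05) with adjusted p = 6.71e-05 and 7.96e-05 in limma. Fech A_52_P293076 fell from 0.75 ± 0.05 to 0.24 ± 0.07, a difference of -0.51 (SE 0.05, adjusted p = 5.30e-07 in limma). Fech A_51_P266763 differed by -0.17 (SE 0.08, adjusted p = 0.0696 in limma), and passed with replicate number as a block, at 0.00465. Each of the 4 probes called had the smallest two-sided exact permutation p that 6 against 6 arrays allow, 0.00216, which treats arrays that share a slide as independent.

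**Figure D5:**
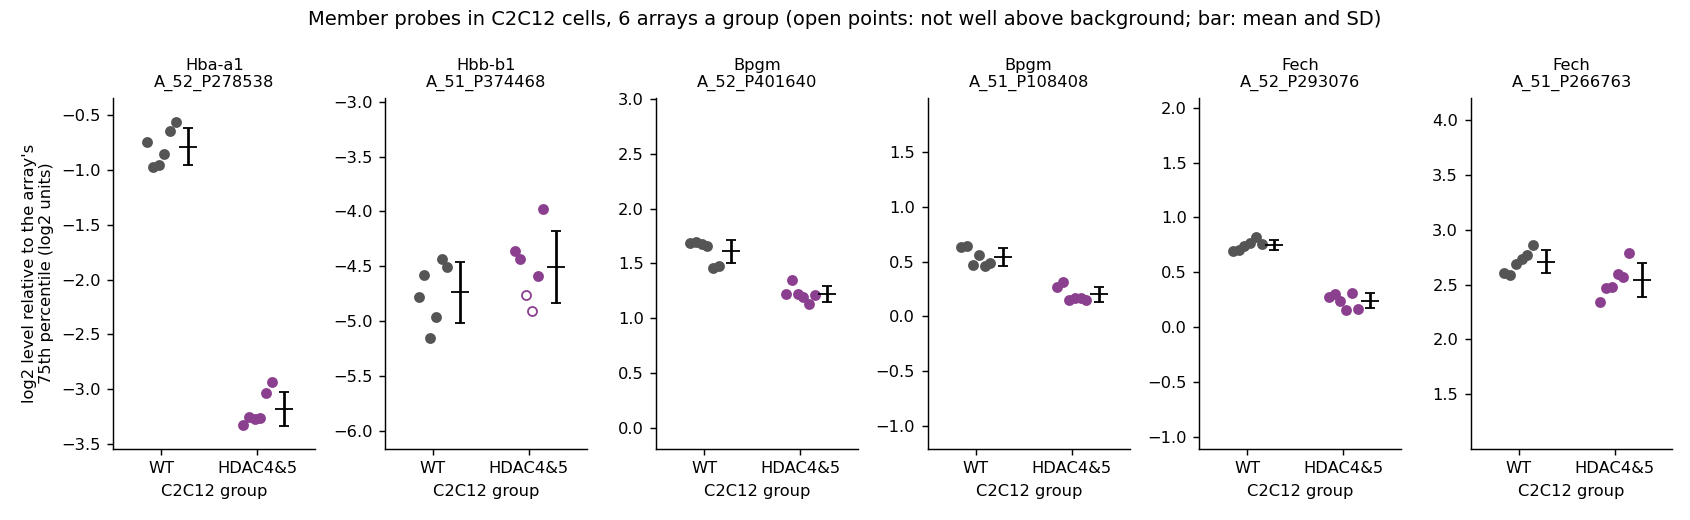
Levels of the 6 tested probes in C2C12 WT and C2C12 HDAC4&5 (y axis, log2 units relative to the 75th percentile of the array, each panel spanning the same number of units; points, arrays; bars, mean and SD of 6 arrays; open points, spots not well above background). Hba-a1 falls from -0.79 to -3.18, the Bpgm probes and Fech A_52_P293076 by 0.34 to 0.51, and Hbb-b1 and Fech A_51_P266763 overlap between groups.

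Of the further erythroid list, 56 genes were tested in C2C12 cells and 43 passed, 23 higher and 20 lower in HDAC4&5, against 36.5% and 31.8% of all probes. Those lower include Hba-a2, whose probe cannot be taken to separate it from Hba-a1. Haem synthesis genes passed in 14 of 16 cases, 9 higher and 5 lower. Cpox, which makes protoporphyrinogen, rose by 1.24, Alad by 0.48 and Slc25a38, a glycine carrier of mitochondria, by 0.62. All 11 membrane and skeleton genes tested passed, 3 higher and 8 lower, among them the ankyrin gene Ank1 at -4.51 and Epb41 at 1.15.

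Iron and signalling genes passed in 10 of 13 cases, 7 higher and 3 lower. Of all probes 68.3% passed, 36.5% higher and 31.8% lower. Tfrc, the transferrin receptor, rose by 1.16, while Epor, the erythropoietin receptor, fell from 1.27 ± 0.16 to -1.22 ± 0.19 (SD, n = 6 each), a difference of -2.49. Erfe fell by 2.07 and Car2 by 2.21.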

How the data were processed

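Total RNA of 12 C2C12 and 7 soleus samples was labelled from 100 ng. The authors deposited the spot intensity of each array from Agilent Feature Extraction 9.5.1.1, background-subtracted and detrended within the array and not scaled between arrays, and also a matrix holding a ratio of that intensity to a constant per array. The matrix was used by group only, because its soleus db columns matched scanner files of other replicate numbers. Levels are log2 of the deposited processed intensity minus the 75th percentile of the array. Control spots and outlier spots were left out and saturated spots kept. A probe entered the limma 3.58.1 fit (R 4.3.3, one fit per data set) if all arrays of either group had it well above background, with Benjamini-Hochberg adjustment over all probes. The members and lists were chosen with earlier results of these data known. Named genes are all members, a list of erythroid genes written by hand, the 5 closest by correlation, and those said to be chosen later. A listed gene counts through its brightest tested probe. The accessions of 27198 of 41174 probes matched RefSeq. Of these steps only the limma fit was run on simulated data, with independent normal noise and no slide effect, saturation or outlier spots. Some list genes are not reported here.

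Replicate numbers were checked as pairs. Deviations from the group mean correlated at 0.367 to 0.704 between same-numbered C2C12 arrays (6 pairs) and at 0.446 to 0.731 in soleus (3 pairs). Differently numbered arrays that shared a slide reached 0.356 to 0.717 and 0.359 to 0.803. The pairing therefore follows the slide. Alternatives were quantile normalization, normexp with an offset of 50, no filter and a stricter filter, the deposited matrix, slide or replicate number as a block, the mean of the probes of a gene, the methods' t-test, each soleus array left out, and, added after the data were seen, outlier spots kept.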

Additional observations from a re-analysis of the deposited data

Results flagged for a closer look

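One value lay far from the others of its group among 24 groups of 4 to 6 arrays checked, where chance flags about 1 in 20. Hbb-b1 A_52_P260346 stood at -3.50 in C2C12 HDAC4&5 replicate 4, against -8.17 to -7.33 in the other 5 arrays of the group, and was the only C2C12 spot of this probe well above background.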

How the results depend on the processing

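Of 10 tested probes, 7 were lower in soleus db. The deposited matrix gave 4 of 7 and the mean of the probes of a gene 4 of 5, and both test fewer features. Leaving out each array gave 7 to 9. The unsaturated Hbb-b1 probe stayed below 0 in every alternative run, from -1.92 to -1.13, the last as the mean of the Hbb-b1 probes, and so did Alas2, from -2.43 without Con 3 to -1.06 without Con 1. Fech A_52_P293076 was at -0.22 as the mean of both Fech probes. No erythroid list gene was called in soleus under any alternative run. At an unadjusted p, 5 passed in limma and 4 by the methods' t-test, and 5 became 15 with slide as a block, 11 with the replicate block, 8 with no filter, 3 with the stricter filter and 2 with normexp. Over all soleus probes, the share past an unadjusted p went from 6.43% to 17.9% with slide as a block and 15.5% with the replicate block. After adjustment 1 probe passed, 32 with slide as a block and 0 to 3 otherwise. With the replicate block, 5 of 6 member probes and 48 of 56 list genes were called in C2C12, against 75.9% of all probes. With slide as a block 6 member probes were called, against 76.6% of all probes. Without a block 4 member probes and 43 list genes were called, against 68.3% of all probes. The list genes lower in C2C12 were 20, and 13 with normexp. The scanner's range limits the bright globin probes, and 7 soleus arrays limit every test there.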
